A study of Mus musculus with 17 samples.

Results

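Alpha cells, the glucagon-secreting cells of the pancreatic islet, were examined in adult control mice and in mice given streptozotocin (STZ), a toxin that kills the insulin-secreting beta cells. The cells were profiled one by one with a modified form of STRT-seq, in which each captured mRNA molecule is counted once by a unique molecular identifier (UMI). An alpha cell was defined as a cell with at least 3000 scaled UMIs of Gcg (the glucagon gene), at least 3 times as many as of Ins2, Sst and Ppy, and under 1500 of Prss2, an acinar protease. Scaled UMIs are the authors' deposited values, which are counts per 100000 UMIs of the cell after 8 genes, mostly hormones, are left out of the total. The rule found 412 alpha cells among 2400 adult cells, which is 17.2%, in a series of 2999 cells. Mirrored rules gave 558 beta cells by Ins2, 113 delta cells by Sst (somatostatin) and 145 PP cells by Ppy (pancreatic polypeptide).

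All mice carried Ngn3-Cre and Rosa-RFP, so that RFP marks cells whose precursors had expressed the endocrine progenitor factor Ngn3, and RFP-positive cells were sorted and picked by mouth pipette. STZ groups were males that received 1 intraperitoneal dose of 200 mg/kg at 2 months of age after an overnight fast. The controls were age-matched males given citrate buffer, in 3 libraries. STZ mice bearing insulin implants were sampled at days 6, 12, 30 and 42 (STZ_D6, STZ_D12, STZ_D30, STZ_D42) and at months 2, 5 and 9 (STZ_M2, STZ_M5, STZ_M9), with 2 libraries at day 12 and 1 at every other time. The month 9 mice had implants only discontinuously in their last 2 months. STZ mice that never had implants were sampled at month 2 (STZ_M2_NoIns, 2 libraries). Nothing in the labels says that libraries came from separate animals, so p-values measure the spread between libraries, which may be technical.

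Glucagon is released when blood glucose falls and makes the liver release glucose, and amino acids are strong stimuli of its secretion. Proglucagon is cut to glucagon by the convertase Pcsk2 in alpha cells, whereas Pcsk1 yields glucagon-like peptides from the same precursor in the gut. STZ enters cells through the glucose transporter Slc2a2, which mouse beta cells carry and mouse alpha cells largely lack.

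The number of alpha cells per library ran from 11 in STZ_D12 replicate 1 to 58 in STZ_M9, apart from control replicate 3 with 1 cell, and the other 2 controls held 26 and 30. Levels below are given in CPM, the UMIs of a gene per 1000000 UMIs over the summed cells of a type in a library, for the 12 libraries with at least 10 alpha cells. An alpha cell had a median of 40150.5 UMIs (range 10496 to 174967) and 4237.5 detected genes. Library medians ran from 26975 UMIs in STZ_D12 replicate 1 to 81681 in STZ_M2_NoIns replicate 1. Raw read file names shared between cells numbered 0, and 0 cells had the same counts as another. Gcg took between 6.97% and 12.7% of all alpha-cell UMIs of a library. The median alpha cell had 13518 scaled UMIs of Gcg, and the 10th and 90th percentiles were 7335 and 22651. At the edge of the rule, the lowest Gcg value among members was 3133, and the highest below the minimum was 2394, with 3 cells missing the rule for this alone. The lowest ratio of Gcg to the next hormone was 3.01 inside and the highest outside was 3.00, with 91 cells missing the rule for the ratio alone. The highest Prss2 value inside was 1491 and the lowest outside was 1521, with 25 cells missing the rule for Prss2 alone.

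The label was checked against alpha-cell markers that the rule did not use, after each cell was thinned to 23798 UMIs, which left out 45 shallower alpha cells. Irx2 was detected in 75.5% of alpha cells, against 4.30% of beta, 2.53% of delta and 15.3% of PP cells. Irx1 was detected in 32.2% of alpha cells, 0.187% of beta, 0% of delta and 0.806% of PP cells. Both factors marked the cells picked by Gcg, whereas other alpha markers were shared more widely. Sfrp5 was detected in 97.0% of alpha and 78.2% of PP cells, and Ttr in 100% of alpha and 100% of beta cells. In the 103 thinned cells with at least 5000 scaled UMIs of Prss2, which should lack alpha-cell genes, Irx2 was detected in 0.971% and Irx1 in 0.971%. Median depth before thinning was 40150.5 UMIs in alpha, 61070.5 in beta, 31851 in delta, 36131 in PP and 70370 in the Prss2-high cells. Before thinning, Irx2 was detected in 76.9% and Irx1 in 37.9% of alpha cells.

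RNA of genes that mark other cell types was detected in alpha cells to differing degrees. Ctrb1, an acinar protease gene, was detected in 100% of thinned alpha cells, and the acinar list without Prss2 summed from 5032 CPM in control replicate 1 to 58469.5 in STZ_M2_NoIns replicate 2. Ins2 had a median of 1947 and 1572 scaled UMIs in the alpha cells of control replicates 1 and 2, against 45.8 in STZ_M2, 52.5 in STZ_D42 and 2382 in STZ_M5. The share of beta cells among all cells of these libraries was 70.8% and 47.8% in the controls, 3.31% in STZ_M2, 6.25% in STZ_D42 and 37.3% in STZ_M5. Ins2 in alpha cells did not follow the share of beta cells in every library. STZ_D12 replicates 1 and 2 had 313 and 999 scaled UMIs at 4.59% and 13.2% beta cells, and the libraries without implants had 956 and 1769.7 scaled UMIs at 2.63% and 9.80% beta cells. In Prss2-high cells the median Ins2 was 750.0 scaled UMIs in control replicate 2 and 28.6 in STZ_M2. The part of free RNA in these values was not tested. Markers of other lineages differed. Detection was low for the immune Ptprc, with 0.545% of thinned alpha cells, Cd74 with 2.18% and Lyz2 with 5.45%, for the blood-cell Hbb-bs with 8.17%, and for the endothelial Cdh5 and stromal Col1a1 with 0% and 0%. The ductal markers were split. Krt19, Sox9 and Cftr were detected in 5.18%, 4.36% and 0.545% of thinned alpha cells. Krt7 and Spp1 were instead detected in 86.4% and 51.8% of alpha cells, beside 95.1% and 31.6% of beta and 4.85% and 12.6% of Prss2-high cells. At least 3 of 14 ductal-list genes had a UMI in 411 of 412 alpha cells, and the list summed from 869 to 2511 CPM.

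The sequence upstream of the glucagon gene is shown because Gcg defines these cells, and that of Pcsk1 because it had the lowest level relative to beta cells among the granule genes tested. Both windows hold the 250 bases before the RefSeq start site on the mouse GRCm38.p6 assembly. Gcg lies on the minus strand of chromosome 2 (window chr2:62483654-62483903) and Pcsk1 on the plus strand of chromosome 13 (window chr13:75089607-75089856). Capitals mark matches, on either strand, to 3 motifs searched: TATAAA (the TATA box), TAAT (the core of homeodomain sites) and TGACGTCA (the cAMP response element).
Gcg: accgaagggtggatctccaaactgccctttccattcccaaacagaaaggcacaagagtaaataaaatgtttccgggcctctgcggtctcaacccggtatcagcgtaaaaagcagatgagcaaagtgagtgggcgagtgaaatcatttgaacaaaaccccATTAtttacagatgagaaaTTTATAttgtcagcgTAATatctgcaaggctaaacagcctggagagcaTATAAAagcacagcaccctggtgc
Pcsk1: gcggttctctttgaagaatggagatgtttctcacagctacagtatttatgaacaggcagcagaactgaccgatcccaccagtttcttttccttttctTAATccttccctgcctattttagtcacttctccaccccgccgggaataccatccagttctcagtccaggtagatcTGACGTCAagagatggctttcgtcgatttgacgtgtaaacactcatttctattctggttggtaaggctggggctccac
The Gcg window held TATAAA at bases -24 to -19 from the start and, reversed, at -72 to -67, and TAAT at -57 to -54 and, reversed, at -91 to -88. The Pcsk1 window held TAAT at -153 to -150 and TGACGTCA at -78 to -71, and no TATAAA. Among 32851 promoters of the same source and length, TATAAA occurred in 12.4%, TAAT in 54.9% and TGACGTCA in 1.55%. None of the matches overlapped another, and they describe letters, not binding. Of 10 genes looked up, 6 had a promoter entry.

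Alpha cells were then compared with each of the other endocrine types inside the same libraries, with the library as a block, in edgeR's quasi-likelihood test on summed counts. A gene counts as called where its p, adjusted by Benjamini-Hochberg over all genes tested, is under 0.05. Delta cells could be compared in 4 libraries (STZ_D12 replicate 1, STZ_D30, STZ_D42 and STZ_M9) and PP cells in 7, all of them after STZ. Beta cells could be compared in 9 libraries, of which 2 were controls. The types had been picked by their hormones, so genes that follow those hormones across cells had to differ, and the 5 genes of the rules were not tested. The 3 comparisons share the alpha-cell sums, so their values stand side by side and are no repeats of each other. Against delta cells 741 of 9163 genes were called (8.09%), of which 4.03% of those tested were higher and 4.06% lower in alpha cells. Against PP cells 866 of 9672 were called (8.95%), 5.13% higher and 3.83% lower. Against beta cells 3312 of 11734 were called (28.2%), 12.2% higher and 16% lower. A fold with 0 UMIs on one side is a lower bound, set against 3 UMIs over the group.

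The regulators of alpha-cell identity included some of the clearest differences. Of 22 listed genes, 20 were tested against delta cells, with 7 called higher and 2 lower (median log2 fold change 0.51 against 0.047 for all genes). Tested were 21 genes against PP cells, with 6 higher and 1 lower (median 0.62 against 0.055), and 21 genes against beta cells, with 9 higher and 2 lower (median 0.91 against -0.0097).

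Irx2 and Irx1, Iroquois homeodomain factors, separated alpha cells from the other types. Irx2 had 108, 119.7, 205 and 135 CPM in alpha cells of STZ_D12 replicate 1, STZ_D30, STZ_D42 and STZ_M9 and 0, 0, 0 and 5.18 in the delta cells of the same libraries, a log2 fold change of 6.47 ± 0.58 (SE, n = 4 libraries, adjusted p = 2.4e-08). Its range in the alpha cells compared with PP cells, 104 to 213, also stood apart from 2.20 to 44.2 in PP cells (3.38 ± 0.29, n = 7, adjusted p = 9.4e-11). In beta cells it was 0 to 17.0, below the 104 to 213 of the alpha cells compared with them (5.41 ± 0.38, n = 9, adjusted p = 5.4e-10). Irx1 had 24.0, 31.0, 42.9 and 28.8 CPM in alpha cells and 0 in the delta cells of all 4 libraries. Irx1 was thus at least 26.7-fold higher than in delta cells (adjusted p = 0.00029). Beta cells held 3 UMIs of Irx1 in all against 485 in alpha cells, a ratio of 389 with a counting interval of 132 to 1895. The plot of levels by cell type shows these factors and other alpha-cell genes beside genes that alpha cells nearly lacked.

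**Figure D1:**
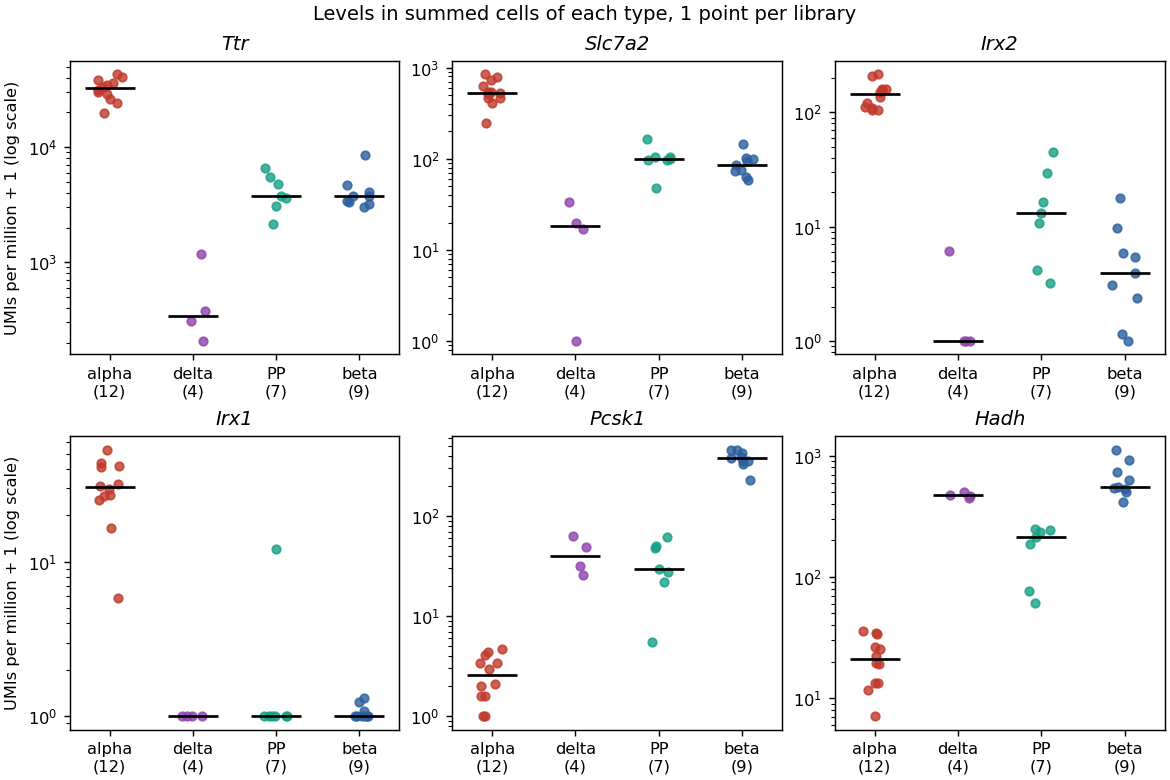
Levels of 6 genes in the summed cells of each endocrine type, as CPM plus 1 on a log scale, with 1 point per library and a line at the median, for 12 libraries of alpha, 4 of delta, 7 of PP and 9 of beta cells. Ttr, Slc7a2, Irx2 and Irx1 had their highest medians in alpha cells, and Pcsk1 and Hadh their lowest.

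Etv1, an ETS factor, ran from 421 to 748 CPM in alpha and from 354 to 800.4 in PP cells (log2 fold change 0.12 ± 0.13, adjusted p = 0.684), with 17.7 to 136 in beta cells (3.59 ± 0.24, adjusted p = 3.5e-10). Every alpha sum lay within the PP range, and Etv1 was called higher than in delta cells. Pou3f4, the POU factor also known as Brn4, had 66.1, 23.1, 37.0 and 20.4 CPM in alpha cells and 0 in each set of delta cells, at least 22.1-fold higher (adjusted p = 0.00019). Its difference from PP cells was 1.46 ± 0.52 (adjusted p = 0.073), which missed the threshold. Neurod1, a pan-endocrine factor, was higher than in delta cells by 1.32 ± 0.24 (adjusted p = 0.0004) and than in PP cells by 0.78 ± 0.16 (adjusted p = 0.00075), and its difference from beta cells was 0.18 ± 0.14 (adjusted p = 0.378).

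Surface and secreted markers of alpha cells differed more uniformly. Of 20 listed genes, 14 were tested against delta cells, with 13 called higher and 0 lower (median log2 fold change 2.98 against 0.047 for all genes). Tested were 15 genes against PP cells, with 10 higher and 0 lower (median 0.94 against 0.055), and 15 genes against beta cells, with 14 higher and 1 lower (median 3.55 against -0.0097). Ttr, the carrier of thyroxine and retinol-binding protein, had 19658, 34789.8, 28706 and 40902 CPM in alpha cells of the 4 libraries and 305, 377, 205 and 1168 in delta cells. Each library thus held far more Ttr in its alpha cells, by 6.23 ± 0.25 on the log2 scale (adjusted p = 9.7e-15). PP and beta cells had from 2166 to 6607 and from 3039 to 8506, and still stood below all alpha values (2.80 ± 0.13 and 2.87 ± 0.14, adjusted p = 4.4e-18 and 2.5e-12).

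Among the genes called higher in each comparison, the 15 whose smallest log2 fold change over the 3 comparisons was largest were picked. They included Gfra3, Irx1, Hhatl, Slc38a5, Egflam, Irx2, Sstr2, Adcy1, Higd1a, Thsd7a, Ttr, Ugt8a, Wnk3 and Lgi2. Gfra3, the receptor subunit for the neurotrophic factor artemin, led them by a fitted value that depends on the prior count, with 18.0, 43.8, 27.4 and 63.3 CPM in alpha cells of the 4 libraries. No UMI of Gfra3 was found in delta or PP cells of any library compared, so that it was at least 41.1-fold and 57.8-fold higher. Higd1a, a mitochondrial protein induced by low oxygen, had 174 to 374 CPM in alpha and 0 to 21.3 in delta cells (5.32 ± 0.48, adjusted p = 2.3e-08). It also exceeded PP cells by 3.04 ± 0.28 and beta cells by 5.47 ± 0.32 (adjusted p = 8.2e-10 and 3.4e-11). Wnk3, a kinase that controls ion transporters, ranged from 168 to 485 in the alpha cells compared with beta cells, which had 5.64 to 26.2 (4.24 ± 0.23, adjusted p = 9.9e-12). Adcy1, Lgi2 and Thsd7a were low, with medians of 13.6, 12.3 and 20.5 CPM in the alpha cells compared with delta cells. Adcy1 lost the call against delta cells without STZ_D12 replicate 1, STZ_D30 or STZ_D42 (adjusted p = 0.118, 0.0586 and 0.114). Thsd7a lost it without STZ_D30, STZ_D42 or STZ_M9 (0.164, 0.160 and 0.189), and Lgi2 without STZ_D30 (0.0807). Lgi2 also lost the call against PP cells without STZ_D30, STZ_D42 or STZ_M5 (0.0501, 0.0588 and 0.0771).

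**Figure D2:**
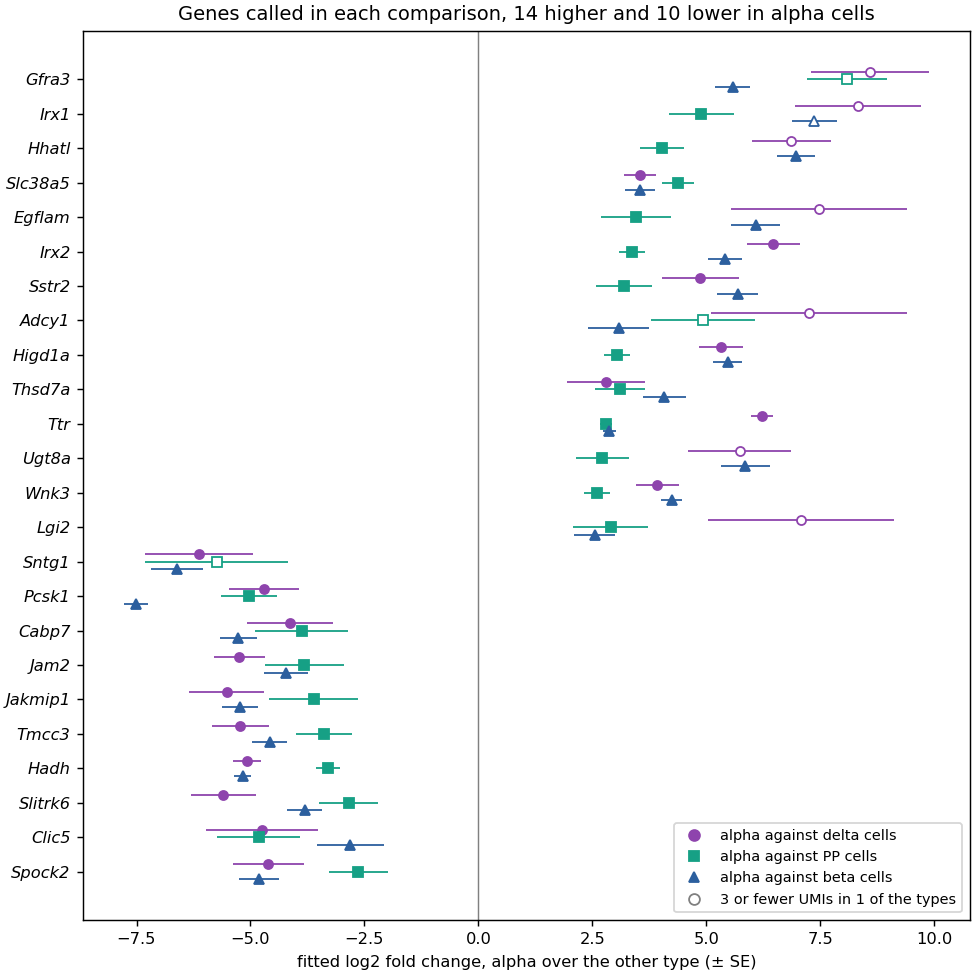
Fitted log2 fold changes (± SE) of 14 genes higher and 10 genes lower in alpha cells in each comparison, with 1 marker shape each for delta, PP and beta cells. Open symbols mark genes with 3 or fewer UMIs in 1 of the types, whose fitted size depends on the prior count and is no bound.

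The 10 genes named as lower in each comparison were Sntg1, Pcsk1, Cabp7, Jam2, Jakmip1, Tmcc3, Hadh, Slitrk6, Clic5 and Spock2. Pcsk1, a convertase of proinsulin, had 0, 0.608, 0.596 and 3.69 CPM in alpha cells of the 4 libraries and 62.9, 30.4, 24.7 and 47.9 in delta cells. It ran from 230.1 to 462 in beta cells and from 4.52 to 60.7 in PP cells, above every alpha value of the same comparison. The log2 fold changes against delta, PP and beta cells were -4.70 ± 0.77, -5.03 ± 0.62 and -7.52 ± 0.26 (adjusted p = 0.00015, 3.1e-07 and 2.3e-14). Hadh, a dehydrogenase of mitochondrial fatty acid oxidation, had 33.0, 6.08, 18.5 and 10.6 CPM in alpha cells and 477, 468, 506 and 443 in delta cells. Alpha cells had the lower value in every library of each comparison, with -5.07 ± 0.31, -3.30 ± 0.26 and -5.17 ± 0.18 against delta, PP and beta cells (adjusted p = 2.1e-11, 1.4e-11 and 2.3e-14). Cabp7 lost the call against PP cells without STZ_D12 replicate 2 (adjusted p = 0.096), as did Jakmip1 without STZ_D6 or STZ_D30 (0.0717 and 0.062). Clic5 lost it against delta cells without STZ_D42 (0.136) and in thinned cells (0.130), and Sntg1 against PP cells with DESeq2 (0.349). With the hormone at least 10 times the others, Slitrk6 lost it against PP cells (0.0856) and Clic5 against beta cells (0.0682).

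Genes of glucagon processing and of the secretory granule went in both directions. Of 17 listed genes, 16 were tested against delta cells, with 8 called higher and 3 lower (median log2 fold change 0.62 against 0.047 for all genes). Tested were 16 genes against PP cells, with 7 higher and 3 lower (median 0.31 against 0.055), and 16 genes against beta cells, with 4 higher and 6 lower (median -0.13 against -0.0097). Pcsk2, the convertase that yields glucagon, was higher in alpha cells of every library, by 1.02 ± 0.15, 0.55 ± 0.09 and 0.97 ± 0.09 against delta, PP and beta cells (adjusted p = 2.5e-05, 6.9e-05 and 3.2e-08). Its level ran from 10653 to 15338 CPM in the alpha cells compared with PP cells, which had 6741 to 9911. Pcsk1n, whose product proSAAS inhibits Pcsk1, was likewise higher, by 1.37 ± 0.16, 0.66 ± 0.11 and 1.35 ± 0.11 (adjusted p = 2e-06, 4.3e-05 and 3.5e-09). The granins split, and Chgb and Scg2 were lower in alpha cells than in each other type in every library, Chgb by -2.05 ± 0.17, -1.22 ± 0.11 and -2.26 ± 0.19 (adjusted p = 1e-08, 3.8e-10 and 5.8e-09) and Scg2 by -1.45 ± 0.17, -1.23 ± 0.11 and -2.23 ± 0.13 (adjusted p = 1.7e-06, 9.3e-11 and 2.6e-11). Chga differed from delta, PP and beta cells by 1.20 ± 0.14, 0.92 ± 0.11 and -0.998 ± 0.10 (adjusted p = 2.2e-06, 3.8e-07 and 8.2e-08), and thus was higher than in the first 2 and lower than in beta cells. Slc30a8, the zinc transporter of the granule, had 547, 549, 953 and 625.1 CPM in alpha and 14.7, 0, 6.17 and 3.89 in delta cells (6.63 ± 0.36, adjusted p = 2.2e-12). It differed from beta cells by 1.16 ± 0.20 (adjusted p = 0.00017) over 9 libraries, of which 2 were controls. Alpha and beta cells had 737 and 881 CPM in control replicate 1 and 844 and 816 in control replicate 2, whereas after STZ beta cells had 108 to 311 and alpha cells 547 to 953. Chgb also differed in beta cells between these groups of libraries. Alpha and beta cells had 1067 and 2241 CPM of it in control replicate 1 and 1058 and 1841 in control replicate 2. After STZ beta cells had 4610 to 7396 and alpha cells 832 to 1257. For neither gene was the difference between these groups of libraries tested.

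Amino acid handling included several genes that were higher in alpha cells. Of 18 listed genes, 14 were tested against delta cells, with 6 called higher and 0 lower (median log2 fold change 1.298 against 0.047 for all genes). Tested were 14 genes against PP cells, with 6 higher and 0 lower (median 0.71 against 0.055), and 16 genes against beta cells, with 6 higher and 2 lower (median -0.091 against -0.0097). Slc7a2, a transporter of arginine and lysine, had 514, 464, 630.1 and 458 CPM in alpha cells and 16.1, 0, 18.5 and 32.4 in delta cells. Its alpha values were above those of every other type, by 4.90 ± 0.35, 2.53 ± 0.15 and 2.61 ± 0.13 (adjusted p = 4.6e-10, 5.8e-15 and 4.1e-12). The glutamine transporter Slc38a5 was higher by 3.55 ± 0.35, 4.38 ± 0.35 and 3.55 ± 0.33 (adjusted p = 9.4e-08, 1.9e-11 and 3.2e-08), but it was also detected in 75.7% of the thinned Prss2-high cells against 65.9% of alpha cells. Slc38a4, of the same family, was higher by 2.96 ± 0.31, 2.06 ± 0.19 and 0.82 ± 0.15 (adjusted p = 2.3e-07, 6.3e-10 and 0.00023). Slc3a2, the heavy chain shared by several amino acid exchangers, was higher by 1.76 ± 0.25, 1.12 ± 0.16 and 0.76 ± 0.13 (adjusted p = 2e-05, 5e-06 and 0.00015).

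Receptors for hormones and transmitters differed in both directions. Of 20 listed genes, 11 were tested against delta cells, with 5 called higher and 3 lower (median log2 fold change 1.06 against 0.047 for all genes). Tested were 10 genes against PP cells, with 2 higher and 1 lower (median 0.46 against 0.055), and 15 genes against beta cells, with 6 higher and 7 lower (median -0.40 against -0.0097). Sstr2, a receptor for somatostatin, had 29.2 to 62.6 CPM in alpha and 0 to 6.48 in delta cells and was higher than in each type by 4.87 ± 0.85, 3.20 ± 0.62 and 5.69 ± 0.45 (adjusted p = 0.00031, 0.00052 and 3.4e-09). Avpr1b, a vasopressin receptor, had 17.5 to 54.6 in the alpha cells compared with beta cells and 0 to 2.83 in beta cells (7.48 ± 0.57, adjusted p = 1.8e-09), while its difference from PP cells was 1.64 ± 0.56 (adjusted p = 0.0592). Gpr119, a receptor for lipid amides, counted 1195 UMIs in alpha and 1 in delta cells, a ratio of 386 with a counting interval of 69.2 to 15276. Gcgr, the glucagon receptor itself, was the reverse, with 0 to 1.11 CPM in alpha and 6.98 to 68.0 in beta cells, or 2 UMIs against 1259 (adjusted p = 4.1e-11). The adrenergic receptor Adra2a had 0 to 4.03 in alpha and 14.2 to 90.8 in beta cells (-5.74 ± 0.35, adjusted p = 5.3e-11). Adrb1, a beta-adrenergic receptor, had 0 UMIs in beta cells and 93 in alpha cells, at least 74.7-fold higher (adjusted p = 0.00038). Ghsr, the ghrelin receptor, had 0 UMIs in alpha cells and 46 in delta cells, at least 47.4-fold lower (adjusted p = 0.0058).

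Glucose sensing and glycolysis separated alpha from beta cells. Of 23 listed genes, 18 were tested against delta cells, with 2 called higher and 2 lower (median log2 fold change -0.34 against 0.047 for all genes). Tested were 21 genes against PP cells, with 2 higher and 2 lower (median -0.29 against 0.055), and 22 genes against beta cells, with 3 higher and 12 lower (median -0.60 against -0.0097). Slc2a2, the transporter through which STZ enters, had 0 to 12.5 CPM in alpha and 29.6 to 618 in beta cells (-5.16 ± 0.36, adjusted p = 4.4e-10). G6pc2, a glucose-phosphatase subunit of islets, had 15.5 to 98.4 against 284 to 4588 (-5.06 ± 0.22, adjusted p = 4.5e-13). Neither range overlapped. Pkm, a pyruvate kinase, differed by -1.46 ± 0.11 (adjusted p = 2.2e-09). Pdk4, which restrains pyruvate oxidation, was the reverse, with 30.03 to 225 CPM in alpha and 0 to 26.5 in beta cells (5.69 ± 0.57, adjusted p = 1.2e-07) and 0 to 14.3 in delta cells (4.75 ± 0.53, adjusted p = 6.7e-07). The hexokinase Hk1 counted 276 UMIs in alpha and 0 in beta cells, at least 222-fold higher (adjusted p = 2.8e-06).

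Genes of the unfolded protein response and targets of ATF4 were lower in alpha than in beta cells. Of 26 listed genes, 22 were tested against delta cells, with 1 called higher and 1 lower (median log2 fold change -0.029 against 0.047 for all genes). Tested were 24 genes against PP cells, with 1 higher and 5 lower (median -0.17 against 0.055), and 25 genes against beta cells, with 0 higher and 22 lower (median -1.303 against -0.0097). Hspa5, the main chaperone of the endoplasmic reticulum, had 583 to 1037 CPM in alpha and 1330.3 to 3034 in beta cells (-1.41 ± 0.13, adjusted p = 3e-08), without overlap. Immediate early and dissociation genes, which respond to the handling of cells, differed the other way. Of 20 listed genes, 20 were tested against delta cells, with 5 called higher and 1 lower (median log2 fold change 0.41 against 0.047 for all genes). Tested were 19 genes against PP cells, with 3 higher and 0 lower (median 0.23 against 0.055), and 19 genes against beta cells, with 12 higher and 0 lower (median 1.37 against -0.0097). Fos was called higher than in beta cells (1.52 ± 0.21, adjusted p = 7.2e-06), and its alpha-cell level varied from 19.96 to 2018 CPM between these 9 libraries.

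Most tested genes of the other endocrine types were lower in alpha cells than in the type they mark. Of 15 tested beta-cell genes, 15 were called lower than in beta cells (median log2 fold change -5.05), 8 of 8 tested delta-cell genes were lower than in delta cells (median -5.62), and 3 of 5 tested PP-cell genes were lower than in PP cells (median -2.67). The PP-cell list was nevertheless abundant in alpha cells, with sums from 8434 to 23088 CPM, most of it Pyy, and 4 of its 8 tested genes were higher and 2 lower than in beta cells. Rbp4, a retinol carrier abundant in delta cells, was detected in 100% of thinned alpha cells, at 1333 CPM against 6519 in delta cells. Iapp, the islet amyloid polypeptide, ran from 688 to 4159.6 CPM in alpha and from 45567 to 69151 in beta cells (-4.48 ± 0.20, adjusted p = 7.4e-13). Immune-cell genes were lower in alpha than in delta cells for 7 of 11 tested, and their sum in alpha cells ran from 40.8 to 312 CPM, highest in STZ_D12 replicate 1. The part of immune-cell RNA in this difference was not tested. The 2 endothelial, stromal and blood-cell genes tested against delta cells were both called higher, and 1 alpha cell of STZ_D12 replicate 1 held most of the 421 such UMIs of its library. Of 18 acinar genes tested, 0 were called against delta cells and 1, lower, against PP and 1, lower, against beta cells. Of all genes tested against beta cells, 12.2% were called higher and 16% lower. Relative to beta cells, 3 and 6 of 17 excitability genes, 0 and 3 of 12 ductal genes and 0 and 6 of 12 progenitor genes were called higher and lower. So were 0 and 1 of 22 division genes and 3 and 4 of 17 genes of the DNA damage response. The counts were 2 and 8 of 22 genes of oxidative stress and 2 and 3 of 16 genes of antigen presentation. A share near that of all genes is no result about a list.

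Some genes were among the largest differences from a single type. Against delta cells they were Igsf21, Aard, Pou3f4, Gfra3 and Cit upward, all with 0 UMIs in delta cells, led by Igsf21 with 51.1, 26.1, 43.5 and 37.2 CPM (at least 30.6-fold higher). Downward they were Ly6h, Kcnc2, P2ry1, Ptprz1 and Gap43, of which the potassium channel Kcnc2 had 0 UMIs in alpha and 103 in delta cells (at least 106-fold lower). Against PP cells they were Gfra3, Edil3, Kcnk2, Pdzrn4 and Lama2 upward and Vsig1, Col11a1, Strip2, Sntg1 and St8sia6 downward. Pdzrn4 lost the call without STZ_D12 replicate 2 (adjusted p = 0.0573) or STZ_M2 (0.0649), and Col11a1 without STZ_M2 (0.0518). With DESeq2, the calls against PP cells were lost for Kcnk2, Col11a1, Strip2 and Sntg1 (adjusted p = 0.208, 0.430, 0.673 and 0.349), that of Cit against delta cells (0.325) and that of Slc35f4 against beta cells (0.295). Strip2 also lost it with libraries of at least 5 cells (0.101). Against beta cells they included Hk1, Dnah11, Scin and Edn3 upward. Edn3, an endothelin, had 77.4 to 185 CPM in alpha and 0 to 1.78 in beta cells (7.61 ± 0.28, adjusted p = 3.3e-14). Downward they included Slc35f4, Pdyn, Gcgr and Mreg, of which Pdyn, the precursor of dynorphin peptides, had 0 to 7.80 against 39.1 to 825 (-7.88 ± 0.30, adjusted p = 4.3e-14).

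Some calls of genes named above were lost in the smaller fits of cells with under 500 scaled UMIs of Prss2, a setting chosen after seeing the data that kept 2 libraries against delta and 3 against PP cells. Against delta cells they were those of Irx1, Pou3f4, Neurod1, Etv1, Pcsk1, Sstr2, Ghsr, Adcy1, Cabp7, Clic5, Egflam, Lgi2, Sntg1, Thsd7a and Ugt8a (adjusted p from 0.0535 to 0.339). Against PP cells they were those of Pcsk1, Pcsk2, Pcsk1n, Sstr2, Adcy1, Cabp7, Jam2, Slitrk6, Spock2 and Ugt8a (0.0657 to 0.651). In thinned cells Neurod1 lost the call against delta cells (0.0504), and with no library block so did Thsd7a (0.0996) and, against PP cells, Pcsk1n (0.0696).

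Between alpha cells of the same library, Pyy, the gene of peptide YY, had the highest variance over mean of the genes ranked. Variation was measured as variance over mean between cells thinned to 23798 UMIs, in the 9 libraries with at least 20 alpha cells at that depth (323 cells) and for 2041 genes with a mean of at least 1 UMI in each. A value of 1 is what counting alone gives, and the measure grows with the level, so it does not rank genes by variation relative to their mean. For Pyy it had a median over libraries of 355 (231 to 487), at a median mean of 396 UMIs, followed among genes outside the rule by Ttr with 189.5 (82.8 to 356), Iapp with 143 at a mean of 56.9, Yam1 with 130.5 and the acinar Ctrb1 with 72.6. A value of at least 3 in all 9 libraries was found for 124 of the 2041 genes. In single libraries 30.6% to 49.9% of the genes reached 3, and the median gene had 2.50 to 3.00, so 3 is no high value here. Among the 20 highest, Ctrb1, Clps, Try4, Try5, Cela1, Pnlip, Rnase1, Ctrl and Cpa1 encode acinar enzymes or a cofactor of one. The Spearman correlation between Ctrb1 and Prss2 over cells of a library had a median of 0.944 (0.729 to 0.974, 10 libraries of at least 20 alpha cells). Outside that group stood Malat1, a nuclear non-coding RNA, with 30.3, and Pcsk1n with 27.0.

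Pyy levels of single alpha cells were spread widely. The median alpha cell had 1231 scaled UMIs of Pyy, the 10th percentile was 137 and the 90th 4975, a ratio of 36.4, against a ratio of 4.59 for Ttr. That of Gcg, 3.09, is bounded by the rule that picked the cells and is no measure to set Pyy against. Library medians of Pyy ran from 339 in STZ_D42 and 441 in STZ_M2 to 2343 in STZ_M2_NoIns replicate 1, with 1283 and 1448 in controls 1 and 2. The 10th and 90th percentiles were 105 and 5763 in control 1 and 319.8 and 5016 in control 2, so that low and high cells stood in controls too. Within libraries Pyy was correlated with Ppy (median Spearman correlation 0.575, 0.345 to 0.712), which the rule caps relative to Gcg, and with Tspan8 (0.323, 0.0209 to 0.531), another gene of PP cells. Its correlation with Gcg was 0.0368 (-0.186 to 0.394), with Ttr 0.0198 and with total UMIs 0.0294. These are descriptions over cells that share a library and a scaling. In summed cells Pyy differed from delta, PP and beta cells by -1.39 ± 0.23, -2.67 ± 0.14 and 3.05 ± 0.32 (adjusted p = 0.00021, 2.5e-16 and 2.1e-07), so that it was below the first 2 and above beta cells. The call against delta cells was lost with DESeq2 (adjusted p = 0.101). Scaled Gcg was inversely correlated with the cell's total UMIs, with a median of -0.725 (-0.928 to -0.653). The total used for scaling leaves Gcg out but is itself a part of total UMIs. Dividing by it can thus give an inverse correlation, and its part in this value was not tested.

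**Figure D3:**
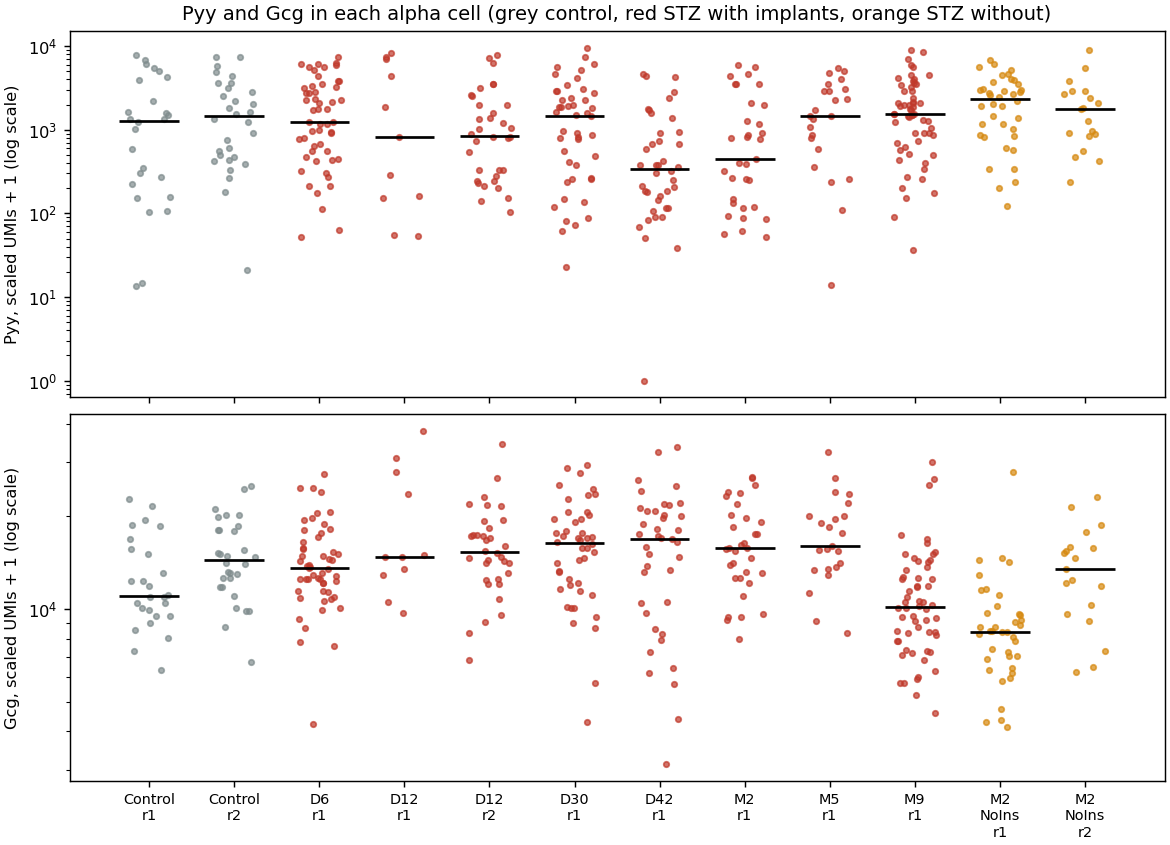
Scaled UMIs plus 1 of Pyy and Gcg in each alpha cell, on log scales, by library (grey control, red STZ with implants, orange without), with a line at the library median, for the 12 libraries with at least 10 alpha cells. Pyy spreads widely in each library, while Gcg stays within a narrower band whose lower edge the rule sets.

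A few alpha cells carried the RNA of cell division. Of 22 division genes, at least 11 had a UMI in 4 of 412 alpha cells, a limit chosen after the values were seen. Of these cells 3 came from STZ_D6 and 1 from STZ_M9, and 0 of 57 control alpha cells were among them. The control cells came from 3 libraries, 1 of which held 1 cell, and cells of a library are not replicates. They thus set no limit on the share in controls. The STZ_M9 cell had UMIs of 21 of the genes and 2013 division UMIs, with 51 of Mki67, 129 of Top2a, 148 of Ube2c and 90 of Cdk1. Scaled, its division sum was 2129.5 against a median of 26.6 in its library. The 3 cells of STZ_D6 had 442, 202 and 76 division UMIs from 16, 15 and 12 genes. All 4 cells had high Gcg, from 7082 to 13112 scaled UMIs, as the rule requires, with Ttr from 2745 to 4328. The STZ_M9 cell had 107248 UMIs in all, against a library median of 66354.5, and the STZ_D6 cells had 38670, 41523 and 45098, against a median of 37092. Of the 4 cells, the 1 with 76 division UMIs had 0 of Mki67, Ccnb1, Ube2c and Birc5. Doublets were not called, and their part in these cells was not tested.

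**Figure D4:**
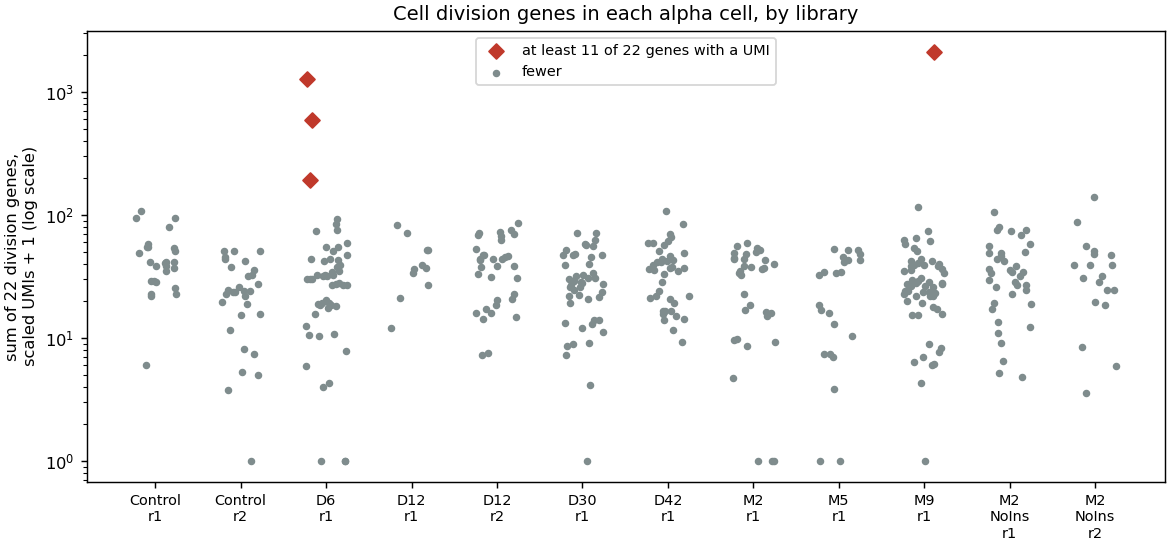
Sum of 22 cell division genes in each alpha cell, as scaled UMIs plus 1 on a log scale, by library, with red diamonds for the 4 cells with a UMI of at least 11 of the genes. The diamonds lie in STZ_D6 and STZ_M9, between 193 and 2129.5, and the highest other cell reached 138.

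The share of alpha cells among alpha, delta and PP cells was compared between STZ with implants and controls, leaving out beta cells because STZ kills them. It was 78.8% of 33 cells and 69.8% of 43 in controls 1 and 2. After STZ it was 77.9% at day 6, 17.2% and 58.6% in the 2 day 12 libraries, 63.0% at day 30, 50.6% at day 42, 61.1% at month 2, 50.0% at month 5 and 76.3% at month 9. The day 12 replicates lay far apart, with exact Clopper-Pearson 95% intervals of 8.90% to 28.7% and of 44.9% to 71.4%, which cover counting error only, and STZ and control values overlapped. The means were 56.9% ± 19.1 (SD, n = 8) and 74.3% ± 6.38 (SD, n = 2), a difference of -17.4 points (exact two-sided permutation test, p = 0.222, smallest possible 0.0222). The 2 libraries without implants had 74.5% and 79.2%. Cells were sorted and picked by hand, so these are shares of the cells collected.

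No gene of alpha cells was called between STZ with implants (8 libraries) and control (2 libraries). Of 10385 genes tested, 0 were called (0%) by edgeR, 442 had an unadjusted p under 0.05, and DESeq2 called 2. Without control replicate 2 edgeR called 18, with the lone control assumed to vary like the STZ libraries. Ttr was 24254 and 42789.5 CPM in controls and 19658 to 40902 after STZ (log2 fold change -0.07 ± 0.24, adjusted p = 0.999), and Pyy was 15789 and 15366 against 7329 to 22178 (-0.02 ± 0.28, adjusted p = 0.999).

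Some genes with separated levels did not pass the test, and with 2 control libraries such separation can arise by chance. How many of all genes tested were separated was not counted. B2m, the light chain of class I histocompatibility molecules, had 77.4 and 133 CPM in controls and 150.3 to 367 (median 239) after STZ. The groups did not overlap, with a log2 fold change of 1.26 ± 0.30 and an adjusted p of 0.767. Dnajb1, a heat-shock chaperone, had 254 and 130.3 in controls and 40.7 to 126 (median 72.3) after STZ (-1.36 ± 0.33, adjusted p = 0.767), again without overlap. No list held a called gene. Of 24 tested unfolded protein response genes and ATF4 targets, 23 had a log2 fold change over 0 (median 0.36 against 0.0053 for all genes), and of 19 immediate early genes 2 did (median -0.91). Of 18 acinar genes 18 did (median 1.09), with summed levels of 5032 and 23865 CPM in controls and 14444 to 45177 after STZ. The summed immediate early list was 7318 and 4547 in controls and 1126 to 6880.1 after STZ, so that its ranges overlapped. Those of the summed unfolded protein response genes and ATF4 targets overlapped too, with 5067 and 4858 in controls and 4874 to 6814 after STZ. The part of acinar RNA and of cell handling in these values was not tested.

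Alpha cells of STZ mice without implants were compared with those of STZ mice with implants in a fit of 12 libraries, and edgeR called 0 of 10573 genes (0%). By unadjusted p 554 were under 0.05, and DESeq2 called 2. Without control replicate 2 or STZ_D6 edgeR called 1 and 1. The calcium-stimulated adenylyl cyclase Adcy1 stood apart by its levels. It had 65.2 and 101 CPM without implants and 25.7, 21.02, 13.8, 4.25, 11.9, 10.8, 2.23 and 15.3 in the libraries with implants, in the order of time. Controls had 0.807 and 3.95, so both libraries without implants lay above all others. The log2 fold change was 2.70 ± 0.48 with an adjusted p of 0.0885, and the adjusted p was 0.0497 without control replicate 2 and 0.0392 without STZ_D6. Of 22 alternatives, 18 left Adcy1 uncalled and 4 called it. Time after STZ also differs between the libraries with and without implants, and only STZ_M2, with 10.8, matches it. How many other genes had both libraries without implants above all others was not counted.

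Along time after STZ, 3 of 9701 genes were called for a slope on log2 days (0.0309%) in the 8 libraries with implants, 1 rising (0.0103%) and 2 falling (0.0206%). The count was 18 without STZ_D12 replicate 1, 5 without STZ_D42 and 0 without STZ_M9. All STZ mice were dosed at 2 months of age, so in this fit age cannot be told apart from time after STZ. The rising gene was Slc38a5. Its level was 113 CPM at day 6, 84.1 and 119.8 at day 12, 221 at day 30, 94.2 at day 42, 143 at month 2, 338 at month 5 and 702 at month 9. The highest values were at months 5 and 9, while day 42 lay below day 6, and controls had 163 and 115. The slope was 0.46 ± 0.08 log2 units per doubling of days (adjusted p = 0.0161). Single cells carried much of the level, with the highest cell holding 63.2% of the Slc38a5 UMIs in STZ_D30, 71.6% in STZ_M5 and 54.5% in STZ_M9. Without the highest cell of each library the slope was 0.29 (adjusted p = 0.382), and without STZ_M9 it was 0.33 (adjusted p = 0.9995). Without STZ_D12 replicate 2 or STZ_M5 the adjusted p was 0.0732 and 0.0918, and with the rank of time it was 0.0891. The 3 cells had 600.1, 577 and 1149 scaled UMIs of Slc38a5, and none was among the 4 cells with UMIs of at least 11 division genes. The median cell of STZ_M9 had 19.1 scaled UMIs, and the medians of the other libraries ran from 0 to 12.8.

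**Figure D5:**
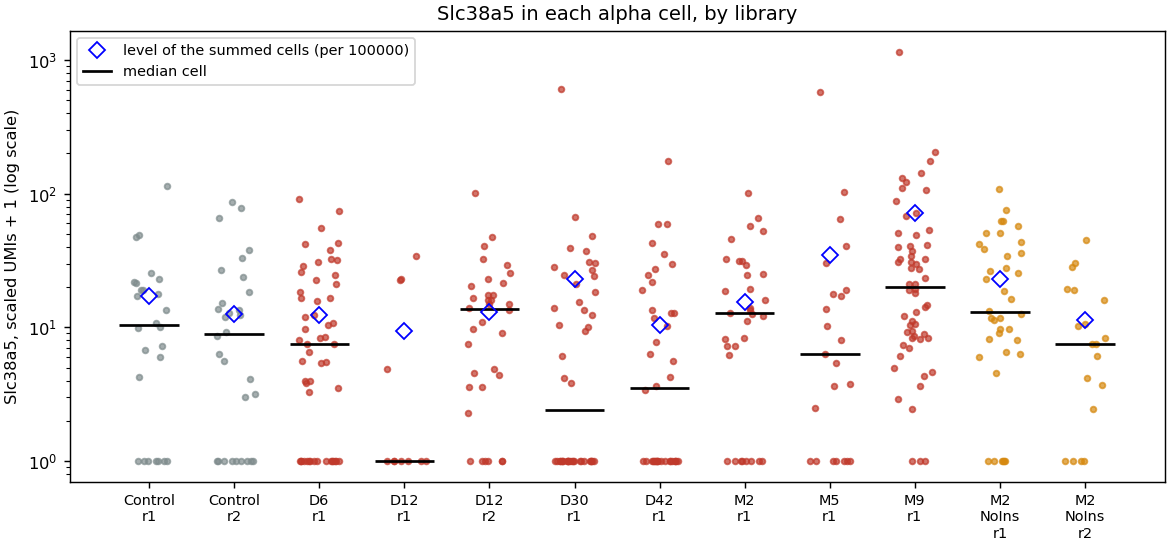
Slc38a5 in each alpha cell, as scaled UMIs plus 1 on a log scale, by library (grey control, red STZ with implants, orange without), with lines at the medians of cells and blue diamonds for the level of the summed cells per 100000 UMIs. In STZ_D30, STZ_M5 and STZ_M9 a single cell stands far above the rest.

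The falling genes were Prss3, a trypsin gene, and a gene model without an official name. Prss3 is 1 of several closely related trypsin genes between which reads could be split, so its level is uncertain. It went from 193 CPM at day 6 to 4.92 at month 9 (-0.75 ± 0.10 per doubling of days, adjusted p = 0.0016). Its controls had 4.03 and 67.9. Of the 18 acinar genes tested, 1 had a slope over 0 (median -0.22), and the summed acinar level in alpha cells was 45177 at day 6 and 19069 at month 9. Without STZ_D6 or STZ_M9 the adjusted p of Prss3 was 0.517 and 0.137, and among cells with Prss2 under 500 it was 0.544.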

How the data were processed

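The deposited UMI count table holds 40824 genes and 2999 cells of 17 libraries, of which 13 are adult. TopHat2 2.1.0, featureCounts 1.5.3, SAMtools 1.3.1, UMI-tools 0.5.0 and the build mm10 are named, without roles, per the submitters' processing notes. A second deposited table gives a scaled signal, and its values matched UMI counts times 100000 over the cell's total without 8 genes (Gcg, Pyy, Ppy, Sst, Iapp, both insulin genes and the RNA Yam1), the largest difference being 0.005 at a tolerance of 0.01. Cell types were taken from this signal by fixed limits. Filters on cells before deposit are not given in the sources used here, doublets were not called, and mitochondrial genes by symbol numbered 0. The members, gene lists and tests were chosen with earlier results of these data known.

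UMI counts were summed over the cells of a type in a library with at least 10 such cells. Sums were tested with edgeR 4.0.16 (quasi-likelihood F test, TMM, filterByExpr, the tool's default prior count) in R 4.3.3. The SE of a log2 fold change is its size over the square root of F. P-values were adjusted by Benjamini-Hochberg over all genes tested. Comparisons between types had the library as a block, so each value is within a library. STZ against control used 8 and 2 libraries, the trend used log2 days with 30 days a month, and the fit of libraries without implants used all 12. The share of alpha cells was tested by an exact permutation test over libraries. Alternatives were DESeq2 1.42.0, no low-count filter, other limits on cells, thinning, other blocks and leaving out each library, and 2 were chosen after the data were seen. Those were cells with Prss2 under 500 and leaving out the cell highest in Slc38a5. The fits against delta, PP and beta cells and of STZ against control were tried on simulated counts before use. Those of the trend and of the libraries without implants were not. Tables and figures were made with Python 3.11.15, NumPy 2.4.6, pandas 2.3.3, SciPy 1.17.1 and matplotlib 3.10.9.

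Replicate numbers were checked for pairing. The correlation of deviations of same-numbered libraries was 0.0454 between controls and day 12 and 0.183 between controls and libraries without implants. Between day 12 and libraries without implants it was -0.0108. The main fits did not pair libraries by number, and with so few replicates the check cannot exclude a pairing. Named genes were members of the lists, the 15 and 10 genes with the largest smallest log2 fold change over the 3 comparisons of types, the 5 largest of each single comparison and direction among those called, and the 20 with the highest variance over mean. Gene models without an official name were counted and not named, and some genes are not reported here. Intervals cover counting error only. Young mice of the series were not used here.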

Additional observations from a re-analysis of the deposited data

Results flagged for a closer look

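In groups of 4 to 10 libraries, the highest or lowest library was set against the others by Dixon's test, which flags about 1 group in 20 by chance, and 5 of 81 groups had such a library. The alpha share of STZ_D12 replicate 1, 17.2%, was far below the other 7 libraries with implants. The median of 66354.5 UMIs per alpha cell in STZ_M9 was far above the other 7. Slc38a5 in STZ_M9, with 702 CPM, was far above the other 7, and a single cell held 54.5% of its UMIs. The difference of Irx1 between alpha and beta cells, on a log2 scale of CPM plus 10, was lowest in control replicate 1, at 0.559, apart from the other 8 libraries compared with beta cells. The same difference of Pcsk1 was least negative in STZ_M9, at -4.13.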

How the results depend on the processing

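The count of genes called against beta cells stayed within 1.5 times of 3312 in every setting run (2329 to 3703). Against delta cells it moved from 741 to 1382 with libraries of at least 5 cells, 353 with thinned cells and 212 with cells under 500 scaled UMIs of Prss2, and against PP cells from 866 to 544 thinned, 495 with the hormone at least 10 times the others and 143 with cells under 500 Prss2. Without the replicate block that the library forms, the counts were 548, 531 and 2728 against delta, PP and beta cells. Of the calls against PP cells 57.3% were higher, against 64.1% with libraries of at least 5 cells and 49.2% with no replicate block. Leaving out each library gave 517 to 627, 619 to 744 and 2879 to 3423. Limits of 20 cells for delta and PP cells, and the 10-fold limit for delta cells, could not be fitted.

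STZ against control had 0 calls, but 2 with DESeq2, 27 with no low-count filter, 1 with the 10-fold limit and 4 in libraries whose raw reads share a run code with a control (1 control library in both), and 0 to 18 leaving out each library. Without against with implants had 0, but 2 with DESeq2, 31 with no filter, 190 with the 10-fold limit (1 library without implants), 9 at month 2 in a fit of group means (1 library with implants), 15 with cells under 500 Prss2 (1 library without implants), and 0 to 1 leaving out each library. Where 1 library stood for a group, it was assumed to vary like the others. The trend had 3, but 26 with DESeq2, 25 with no filter, 18 with libraries of at least 20 cells and 0 to 18 leaving out each library. With the batch number as replicate block, the counts were 0 for STZ against control and 4 for the trend, and the alpha share differed by -16.7 points (exact permutation test, p = 0.188). That difference was -21.9 to -11.8 points leaving out each library. Genes with a variance over mean of at least 3 in every library used numbered 124, 1267 with no thinning and 126 to 139 leaving out each library. The cause of these shifts was not tested.

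Of 3275 values of single genes under an alternative, 3042 kept direction and call, 177 lost the call, 45 gained one and 11 changed sign, none of them called. Etv1 against PP cells was -0.0358 with the 10-fold limit and -0.00242 under 500 Prss2. Between STZ and control, Pyy was 0.0551 with the 10-fold limit, 0.0340 with the libraries without implants joined to STZ, and -0.128 to 0.0770 leaving out each library, and Ttr was 0.00318 at 20 cells, 0.0243 thinned, 0.0730 with the batch number as replicate block and -0.422 to 0.393 leaving out each library. The smallest arm had 2 control libraries, and the library with fewest alpha cells, STZ_D12 replicate 1, had 11.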
